A study of Mus musculus with 4 samples.

Results

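The mir-122 hairpin (gene Mir122) is 1 of the 2202 miRNA hairpins of the mouse annotation used here, and its reads were followed through every library of a fetal liver small RNA series. Its members are the reads that matched the hairpin without mismatch, together with the reads of which all but the last 1 to 3 nt matched it. Wildtype replicate 1 held 156790 such reads among 15841697, and wildtype replicate 2 held 539975 among 13138065. Ago2 CD replicate 1 held 1563385 among 21875540, and Ago2 CD replicate 2 held 374291 among 15238066. No member matched a second hairpin.

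The series compared fetal livers of wildtype mice with those of mice whose Ago2 is catalytic dead (Ago2 CD), which means that the Argonaute protein can load a small RNA but cannot cut a target. Each genotype has 2 libraries, described by the design text as biological replicates, and all 4 came from frozen tissue and Trizol total RNA. The sources used here give no age, strain or allele for either group, and a fetal liver mixes hepatocytes with blood-forming cells. The mir-451a hairpin, whose maturation depends on cutting by Ago2, gave 5465175 and 3872610 reads for wildtype and only 47500 and 31010 for Ago2 CD, so the libraries matched their genotype labels.

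miR-122 is the most abundant miRNA of the mature liver and is made almost only in hepatocytes, where it acts on genes of lipid and cholesterol metabolism. Drosha and Dicer cut its hairpin into a duplex, whose 5p strand is the guide that Argonaute proteins retain and whose 3p strand is the passenger. The 3' end of miR-122-5p is known to receive an untemplated adenosine from the poly(A) polymerase Tent2 (GLD-2), which makes the miRNA a standard example of 3' end modification.

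In the mouse genome build GRCm38 the 66 nt hairpin lies on the plus strand of chromosome 18 from 65248861 to 65248926, inside exon 2 of the long non-coding RNA gene AC157910.3 (65244287 to 65252621). Positions in the hairpin are counted from 1 at its 5' end. The most frequent 5p read covered positions 6 to 27 (65248866 to 65248887), and the most frequent 3p read covered positions 41 to 62 (65248901 to 65248922). Both are 22 nt long. A fold computed from the reference hairpin had a minimum free energy of -32.80 kcal per mol, 26 base pairs and an apical loop of 7 bases. In it, each strand extended 1 base past the pairing partner of the other strand's 5' end. No other arm of at least 100 reads shared bases 2 to 8 (the seed) with miR-122-5p.

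The libraries also differ in the longest read listed, which was 50 nt for the first wildtype and the second Ago2 CD library but 46 nt for the other 2. Genotype and read length are thus crossed, with 1 library in each combination, and every value of mir-122 is given with this split, called the 50 nt pair and the 46 nt pair. With 2 libraries against 2, an exact two-sided permutation test cannot give a p below 0.333.

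The level of miR-122-5p was high in all 4 libraries and did not separate the genotypes. Untailed 5p reads of 18 to 27 nt numbered 113749 and 430671 for wildtype and 1247736 and 261788 for Ago2 CD (replicate 1 first, here and below). As CPM, the usual count scale relative to library size, here with TMM factors, these were 19039 and 48669 CPM in wildtype against 62649 and 27532 CPM in Ago2 CD. The lowest and the second highest library were both wildtype, so the genotypes overlapped. The arm ranked 7 and 4 among the 584 tested arms for wildtype and 2 and 4 for Ago2 CD. Wildtype averaged 33854 ± 20952 CPM and Ago2 CD 45090 ± 24831 CPM (SD, n = 2 each), a log2 fold change of 0.41 (SE 0.67, adjusted p = 0.997, edgeR quasi-likelihood test). In that test 2 of the 584 arms passed an adjusted p of 0.05 (0.342%). The sign of the difference rested on single libraries, since it was -0.29 without Ago2 CD replicate 1 and -0.05 without wildtype replicate 1.

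miR-122-3p, the passenger strand, was scarcer in every library. Its levels were 951 and 2868 CPM in wildtype against 4896 and 1698 CPM in Ago2 CD, with the libraries in the same order as for the 5p strand. Means were 1909 ± 1356 CPM and 3297 ± 2261 CPM (SD, n = 2 each), and the log2 fold change was 0.79 (SE 0.77, edgeR adjusted p = 0.997), or -0.17 without Ago2 CD replicate 1. Within the 46 nt pair it was 0.77 and within the 50 nt pair 0.84, so the Ago2 CD library was the higher one of each pair. The corresponding differences of miR-122-5p were 0.36 and 0.53. With read length as a term in the model, the 3p difference passed the threshold (0.80, SE 0.12, edgeR adjusted p = 0.0276) and the 5p difference did not (0.45, SE 0.16, adjusted p = 0.160). That model called 12 of 584 arms (2.05%).

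The read-length pairs differed more in level than the genotypes. Libraries of the 46 nt pair exceeded those of the 50 nt pair by 1.27 on the log2 scale for miR-122-5p (SE 0.16, edgeR adjusted p = 0.00214) and by 1.56 for miR-122-3p (SE 0.12, edgeR adjusted p = 0.000331), with genotype as a term. Such a difference was common, since 224 of 584 arms (38.4%) passed in the same test. Without the genotype term the adjusted p-values were 0.0577 and 0.0892, and neither arm passed. The choice of scaling moved all arms together. Dividing by all reads on arms, of which miR-451a takes a large share in wildtype only, shifted the median log2 fold change of all arms from 0.04 to 0.74. miR-122-5p then stood at 1.03, or 0.29 above that median, against 0.37 above it with TMM.

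**Figure D1:**
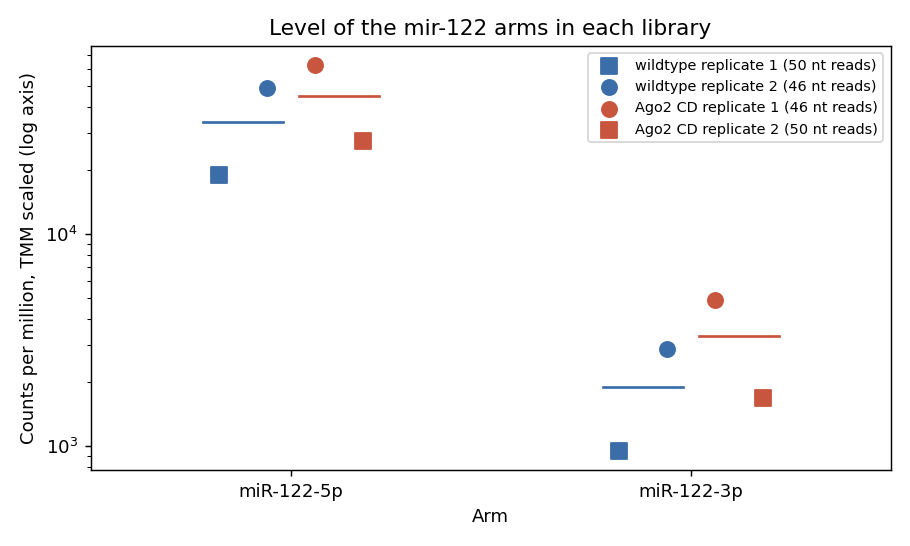
Level of miR-122-5p and miR-122-3p in CPM with TMM scaling (log axis), 1 point per library, with squares for 50 nt and circles for 46 nt libraries and a line at the mean of each genotype. For both arms the circles stand above the squares within each genotype, and the miR-122-5p points of the genotypes interleave, from 19039 to 62649 CPM.

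Fragments of hepatocyte messenger RNAs were read alongside. The 14 listed hepatocyte genes, among them those for albumin (Alb) and alpha-fetoprotein (Afp), were all present in every library and summed to 168 and 325 CPM of the reads outside mir-451a in wildtype against 532 and 400 in Ago2 CD. Alb alone gave 65.0 and 127 in wildtype against 226 and 164 in Ago2 CD. In 9 of the 14 genes both Ago2 CD values lay above both wildtype values. The same order was found in 5 of the 9 erythroid, 2 of the 5 myeloid and 0 of the 4 muscle genes listed. The share of all transcripts with this order was not counted, so the count is not a result about hepatocyte genes in particular. In the other 5 hepatocyte genes, Ago2 CD replicate 2 lay below wildtype replicate 2. The gap was widest for the transferrin gene Trf at 46.8 against 67.6. It was small for Ahsg (10.5 against 10.8), Fgb (4.80 against 4.96), Apoa1 (3.09 against 3.13) and Apoh (1.91 against 1.94). The 9 erythroid genes, led by the globins, summed to 249 and 336 in wildtype against 394 and 488 in Ago2 CD, with the embryonic globin gene Hbb-bh1 at 0 in wildtype replicate 2. The myeloid list summed to 2.02 and 4.10 in wildtype against 4.58 and 5.33 in Ago2 CD, and the muscle list stayed between 0.916 and 2.63 CPM on that scale, with Myh3 at 0 in all 4 libraries. The hepatocyte, erythroid and myeloid sums were each higher in both Ago2 CD libraries than in both wildtype libraries, an order that miR-122-5p did not follow; the part of hepatocyte content in the miRNA level was not tested. In bulk tissue, fewer cells of a type and less RNA per cell cannot be told apart.

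Other arms known from hepatocytes differed among themselves in how they varied over the libraries. Of 10 listed arms, 0 passed the edgeR test between genotypes (smallest adjusted p = 0.997, against 16 of all 584 arms under an unadjusted p of 0.05), and their median log2 fold change was 0.08, beside 0.04 over all arms. The edgeR test put 0 of the 10 under an unadjusted p of 0.05, and limma voom called 0. DESeq2, which called 7 of all 584 arms (1.20%), called 1 of the 10. This was miR-215-5p (-4.75, adjusted p = 0.0310), which is named after its values were seen and had 1.51 and 83.97 CPM in wildtype against 1.11 and 2.10 CPM in Ago2 CD, so that 1 library held nearly all of it. Between the 46 nt and the 50 nt pair their median difference was 0.47, beside -0.03 over all arms. miR-192-5p, for example, had 3775 and 3050 CPM in wildtype against 3517 and 4021 CPM in Ago2 CD, and miR-148a-3p had 3197 and 3086 CPM and then 3815 and 3227 CPM. Both were nearly level across libraries in which miR-122-5p spanned 19039 to 62649 CPM. miR-194-5p followed read length, with 2383 and 4241 CPM in wildtype against 4314 and 2381 CPM in Ago2 CD. miR-101b-3p varied more, with 499.6 and 2066 CPM in wildtype against 2779 and 468 CPM in Ago2 CD.

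The arms whose levels followed miR-122-5p most closely were found by the root mean square difference of log2 CPM, centred per arm over the 4 libraries, among 202 arms with a mean of at least 100 CPM. miR-200a-3p came first with a distance of 0.0780, at 208 and 471 CPM in wildtype against 645 and 262 CPM in Ago2 CD. It was followed by miR-744-5p at 0.146, miR-134-5p at 0.176 and miR-499-5p and miR-139-5p, both at 0.181. All 5 were higher in the 46 nt pair, by 1.07 to 1.24 on the log2 scale. This follows from their choice by closeness to miR-122-5p, which was itself higher in that pair.

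The ratio of the strands varied between libraries, and its genotype difference did not pass the test. Untailed 5p reads outnumbered 3p reads by 20.03 and 16.97 to 1 in wildtype against 12.8 and 16.2 to 1 in Ago2 CD. The 3p strand made up 4.76% and 5.57% of arm reads in wildtype against 7.25% and 5.81% in Ago2 CD, so both Ago2 CD values lay above both wildtype values. The means were 5.16% ± 0.572 and 6.53% ± 1.02 (SD, n = 2 each, exact permutation p = 0.333). On the log2 scale the 3p to 5p ratio differed by 0.36 (SE 0.51, limma adjusted p = 0.999), while 2 of 236 hairpins passed that test (0.847%). With read length as a term the SE was 0.21 and the limma adjusted p was 0.413. Between the read-length pairs the ratio differed by 0.29 (SE 0.21, limma adjusted p = 0.360, with 4 of 236 hairpins passing, 1.69%).

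The 5' end of the guide strand sets its seed, and that of miR-122-5p was nearly uniform. Position 6 was the start of 98.4% and 96.9% of untailed 5p reads in wildtype against 97.2% and 98.2% in Ago2 CD. All other starts together made up 1.61% and 3.07% in wildtype against 2.85% and 1.79% in Ago2 CD. Averaged over the 4 libraries this was the lowest share of other starts among the 254 arms that had 200 reads or more in each library, whose median was 8.12%. It was the lowest in no single library, ranking 239 and 253 from the highest in wildtype against 253 and 238 in Ago2 CD. The most frequent of the other starts was 1 base later, at 0.714% and 2.29% in wildtype against 2.10% and 0.808% in Ago2 CD. The ratio of other starts to position 6 differed by less than its SE between genotypes (log2 difference 0.02, SE 0.52, limma adjusted p = 0.999). Of all 254 arms 0 passed that test (0%), with 3 under an unadjusted p of 0.05. Between the 46 nt and the 50 nt pair the same ratio differed by 0.82 (SE 0.16, limma adjusted p = 0.0219), in a test that 120 of 254 arms (47.2%) passed.

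The 5' end of miR-122-3p was divided between neighbouring positions, and its shares lay apart between the genotypes, although the difference did not pass the test across arms. Position 41 was the start of 68.2% of untailed 3p reads in wildtype replicate 1 (exact Clopper-Pearson 95% interval 66.9% to 69.4%) and of 67.8% in wildtype replicate 2 (67.2% to 68.4%). In Ago2 CD it was the start of 77.0% in replicate 1 (76.8% to 77.3%) and of 76.2% in replicate 2 (75.5% to 76.9%). Intervals and upper limits in the text cover counting error only, since the read tables carry no molecular identifiers that would mark PCR copies. The genotypes did not overlap, with means of 68.0% ± 0.274 and 76.6% ± 0.588 (SD, n = 2 each), and the difference of 8.65 percentage points stayed between 8.23 and 9.06 when any 1 library was left out. The design allows no exact permutation p below 0.333, which is the value obtained.

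Most of the other 3p reads began 1 base later. Position 42 was the start of 28.2% and 29.0% of 3p reads in wildtype against 19.9% and 19.6% in Ago2 CD. There were 0.414 and 0.428 reads from position 42 for each read from position 41 in wildtype, and 0.258 and 0.257 in Ago2 CD. In the fit across arms the ratio of other starts to position 41 was lower by 0.63 on the log2 scale in Ago2 CD (coefficient -0.63, SE 0.27, limma unadjusted p = 0.0871, adjusted p = 0.999), so it did not pass, and it ranked 5 by p among 254 arms. With read length as a term the unadjusted p was 0.0148 and the limma adjusted p was 0.470, in a fit where 1 of 254 arms passed (0.394%). The difference between the 46 nt and the 50 nt pair was -0.02 (limma adjusted p = 0.922).

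**Figure D2:**
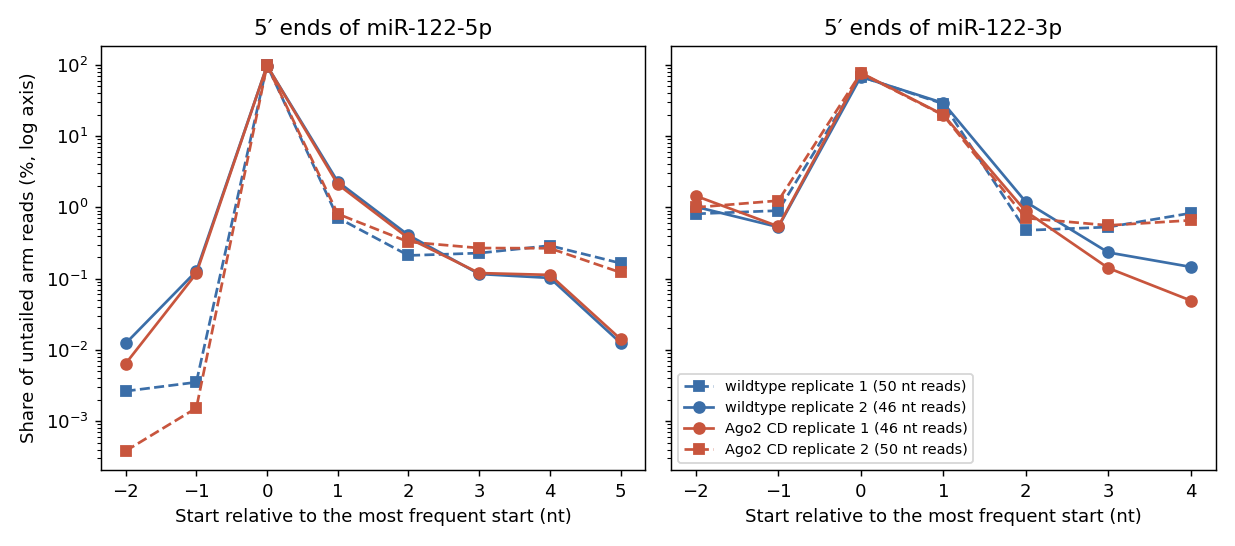
Share of untailed reads (percent, log axis) by start relative to the most frequent start of miR-122-5p (position 6, left) and miR-122-3p (position 41, right), 1 line per library, dashed with squares for 50 nt and solid with circles for 46 nt libraries. On the right, the wildtype lines at 1 nt later (28.2% and 29.0%) stand above the Ago2 CD lines (19.9% and 19.6%), whereas on the left the lines group by read length.

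The main lengths of miR-122-5p reads, 18 to 23 nt, separated the read-length pairs and not the genotypes. Among untailed reads from position 6, the 22 nt form was the most frequent, with 36.9% and 51.7% in wildtype against 53.3% and 40.8% in Ago2 CD. The 23 nt form made up 20.8% and 18.4% in wildtype against 15.5% and 20.6% in Ago2 CD. The 21 nt form made up 23.3% and 11.5% in wildtype against 12.04% and 19.4% in Ago2 CD. In each of these the 50 nt libraries lay on one side of the 46 nt libraries. Forms longer than 23 nt were rare and had another order, with 0.0813% and 0.0941% in wildtype against 0.0636% and 0.0529% in Ago2 CD. Both Ago2 CD values lay below both wildtype values there and the read-length pairs overlapped; this class was not tested on its own.

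The short end of the ladder also divided the read-length pairs. Reads of 18 nt were 14.2% (wildtype) and 14.9% (Ago2 CD) of the ladder in the 46 nt pair, but 0.315% and 0.275% in the 50 nt pair. Reads of 20 nt went the other way, at 2.55% and 2.39% in the 46 nt pair and 13.5% and 13.4% in the 50 nt pair. Among 254 arms the 18 nt share of miR-122-5p ranked 13 in both 46 nt libraries, where the median arm had 0.977% and 1.00%. It ranked 152 and 161 in the 50 nt libraries, with medians of 0.480% and 0.495%.

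Mean read length was 21.5 and 21.4 nt in wildtype against 21.3 and 21.6 nt in Ago2 CD, a genotype difference of -0.017 nt (SE 0.14, limma adjusted p = 0.999, 0 of 252 arms passing, 0%, and 2 under an unadjusted p of 0.05). Longer and shorter reads, each relative to the 22 nt form, differed by less than their SE between genotypes, with log2 differences of -0.23 (SE 0.52) and -0.13 (SE 0.56) and limma adjusted p-values of 0.999 and 1.00. In these tests 0 of 254 arms passed (0%), with 3 and 4 under an unadjusted p of 0.05. With read length as a term, 14 arms (5.51%) passed for shorter reads, miR-122-5p not among them (limma adjusted p = 0.903). Between the read-length pairs, shorter reads were less frequent relative to the 22 nt form in the 46 nt pair (-0.84, SE 0.19, limma adjusted p = 0.00107, with 176 of 254 arms passing, 69.3%). Longer reads did not pass (-0.73, SE 0.17, limma adjusted p = 0.0732, with 94 of 254 arms passing, 37.0%). Mean length was lower there by 0.19 nt (coefficient -0.19, limma adjusted p = 0.0454, with 154 of 252 arms passing, 61.1%).

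**Figure D3:**
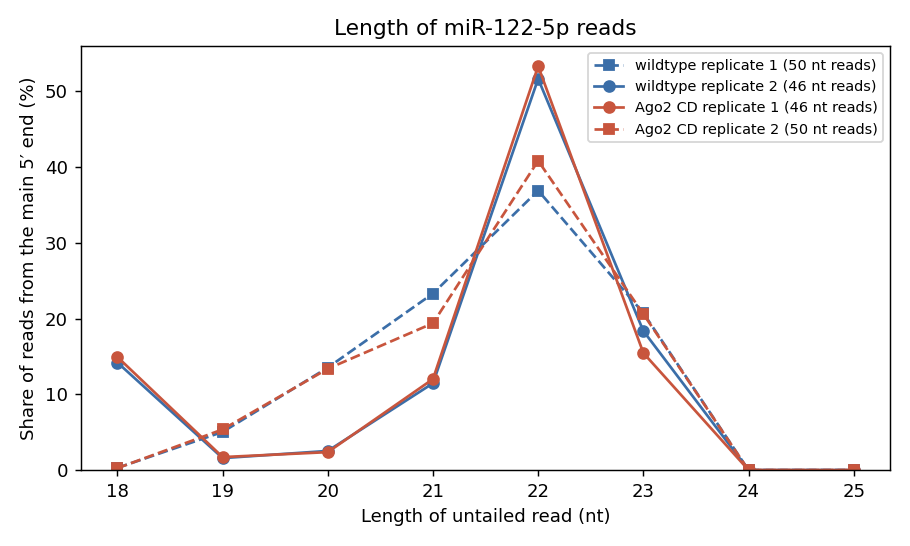
Share of untailed miR-122-5p reads from position 6 by read length (percent of 18 to 27 nt reads), 1 line per library, dashed with squares for 50 nt and solid with circles for 46 nt libraries. The lines of a read length run close together, with 14.2% and 14.9% at 18 nt in the 46 nt pair and 0.315% and 0.275% in the 50 nt pair.

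Most 3p reads ended at position 62 from either start. From position 41 the 22 nt form held 71.8% and 66.9% of untailed reads in wildtype against 71.7% and 75.3% in Ago2 CD. From position 42 the 21 nt form, which has the same 3' end, held 72.1% and 65.3% in wildtype against 71.1% and 71.6% in Ago2 CD. Wildtype replicate 2 was lowest for both.

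Untemplated adenosine, the modification for which miR-122 is known, was present at the 3' end of 5p reads in every library, at shares that overlapped between the genotypes. A tail is 1 to 3 added nt that differ from the hairpin at their first base, and shares are of all 5p reads, tailed ones included. Adenosine tails were on 8.49% and 11.8% of reads in wildtype against 10.8% and 8.04% in Ago2 CD. The 46 nt libraries were the higher ones in each genotype. Genotype means were 10.1% ± 2.32 in wildtype against 9.44% ± 1.99 in Ago2 CD (SD, n = 2 each). Against untailed reads the log2 difference was -0.09 (SE 0.35, limma adjusted p = 0.999), beside a median of -0.11 over all 254 arms. Of these arms 0 passed (0%), with 2 under an unadjusted p of 0.05. With read length as a term the SE was 0.15, the limma adjusted p was 0.823, and again 0 of 254 arms passed.

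Nearly all adenosine tails were a single nt. Tails of 1 adenosine were on 7.93% and 11.2% of reads in wildtype against 10.4% and 7.62% in Ago2 CD, tails of 2 on 0.342% to 0.486% and tails of 3 on 0.0781% to 0.127%. The longer tails were the rarer ones in every library, and for tails of 2 and of 3 both Ago2 CD values lay below both wildtype values. Tails of 2 and of 3 were not tested on their own, and the share of other arms with this order was not counted. By mean share of adenosine tails, 9.79% over the 4 libraries, miR-122-5p ranked 34 of 254 arms, whose median was 3.82%. Substitutions to A inside the 22 nt 5p read, a gauge of reading errors, had a median over positions of 0.0223% to 0.0327% and reached at most 0.215% before the last base. At the last base they were 0.460% to 0.668%, where a substitution cannot be told apart from a 21 nt part with an added base.

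Adenosine tails were concentrated on 1 form of the molecule. Of adenosine-tailed reads from position 6, those with a templated part of 22 nt made up 94.1% and 94.8% in wildtype against 95.3% and 94.999% in Ago2 CD. On this part, the adenosine-tailed share was 19.4% and 19.7% in wildtype against 17.9% and 17.2% in Ago2 CD. The neighbouring parts had far less, with 0.935% to 2.79% on 21 nt and 1.14% to 1.55% on 23 nt. The means on the 22 nt part were 19.5% ± 0.187 in wildtype against 17.5% ± 0.448 in Ago2 CD (SD, n = 2 each). Both Ago2 CD values were below both wildtype values, and the difference was -1.997 percentage points, or -2.31 to -1.68 with any 1 library left out (exact permutation p = 0.333, the smallest the design allows). The part of 24 nt also carried adenosine on 15.4% to 17.9% of reads, but such reads were few.

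**Figure D4:**
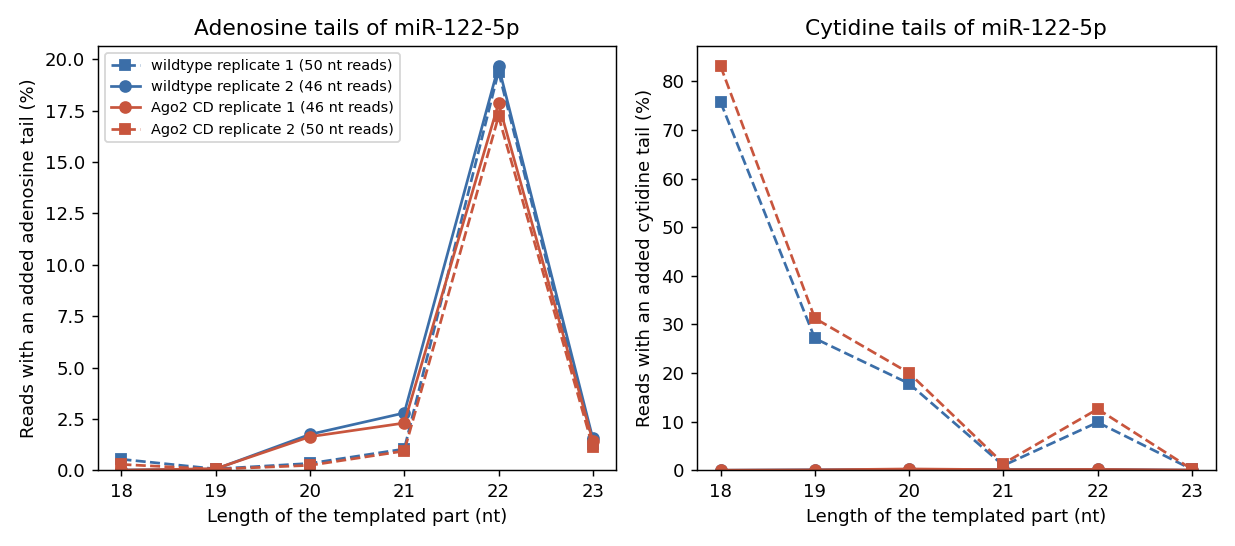
Share of miR-122-5p reads with an added adenosine (left) or cytidine (right) tail, in percent of the reads that have the templated length on the x axis, 1 line per library, dashed with squares for 50 nt and solid with circles for 46 nt libraries. Adenosine peaks at 22 nt at 17.2% to 19.7% in all 4 libraries, whereas cytidine reaches 83.2% at 18 nt in the 50 nt pair and stays low in the 46 nt pair.

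Uridine tails of miR-122-5p followed read length. In the 50 nt pair they were on 3.93% (wildtype) and 4.0004% (Ago2 CD) of reads, but in the 46 nt pair on 0.605% (wildtype) and 0.583% (Ago2 CD). The genotypes overlapped, with a log2 difference of -0.0030 (SE 1.24, limma adjusted p = 0.999, 0 of 254 arms passing, 0%, and 4 under an unadjusted p of 0.05). Between the read-length pairs the difference was -2.93 (SE 0.18, limma adjusted p = 0.00307), and only 2 of the 254 arms had a larger one, in a test that 44 arms (17.3%) passed. An added uridine can be seen only where the next hairpin base is not U, which among parts of 18 to 23 nt is after 21 and 23 nt. On the 21 nt part it was on 16.7% and 20.2% of reads in the 50 nt pair and on 3.99% and 4.10% in the 46 nt pair. On the 23 nt part it was on 0.718% to 1.31% in all 4 libraries. Substitution to U inside the 22 nt read had a median of 0.367% to 1.06%, and at the last base of that read it was 12.2% and 11.6% in the 50 nt pair and 0.839% and 0.875% in the 46 nt pair, with the same limit as for adenosine.

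Cytidine tails were almost absent from the 46 nt pair. They were on 9.13% and 11.9% of 5p reads in the 50 nt pair and on 0.124% in each 46 nt library. The log2 difference between genotypes was 0.21 (SE 4.39, limma adjusted p = 1.00, 0 of 254 arms passing, 0%, and 0 under an unadjusted p of 0.05), and that between read-length pairs was -6.58 (limma adjusted p = 1.26e-08). The latter was shared by almost every arm, with 253 of 254 passing (99.6%) and a median of -6.31. By mean cytidine share miR-122-5p ranked 126 of 254. Guanosine tails were rare, on 0.0225% and 0.149% of 5p reads in wildtype against 0.131% and 0.0267% in Ago2 CD (log2 difference 0.04, SE 1.10, limma adjusted p = 0.998).

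The cytidine tails were unevenly placed along the molecule. In the 50 nt pair they were on 75.8% and 83.2% of reads with an 18 nt templated part, 27.1% and 31.3% with 19 nt, 17.8% and 20.01% with 20 nt and 9.86% and 12.6% with 22 nt. The next hairpin base after each of these parts is U. After 21 nt and 23 nt, where it is another base, the shares were 0.971% and 1.38%, and 0.182% and 0.209%. The 18 nt part without a tail was rare in the 50 nt pair, with 352 of 2058 and 706 of 6690 reads. The cause of this placement was not tested. Whether these cytidines were added to the RNA at all cannot be told from the read tables, and this holds for the cytidine-tailed shares and for the short lengths of the 50 nt pair alike.

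The balance of tail bases also divided the libraries by read length. Among tailed reads other than cytidine-tailed ones, adenosine made up 63.1% and 61.9% in the 50 nt pair and 88.8% and 89.4% in the 46 nt pair. Most adenosine tails stood on the 22 nt part, where an added uridine cannot be seen. On the 21 nt part, where both can be seen, uridine exceeded adenosine in every library. It was on 16.7% and 20.2% against 1.03% and 0.935% in the 50 nt pair, and on 3.99% and 4.10% against 2.79% and 2.30% in the 46 nt pair. On the 23 nt part adenosine was on 1.14% to 1.55% and uridine on 0.718% to 1.31%. The log2 ratio of adenosine to uridine tails differed between genotypes by -0.08 (SE 1.51, limma adjusted p = 0.997) and that of adenosine to cytidine tails by -0.29 (SE 4.89, limma adjusted p = 0.999). In each test 0 of 254 arms passed (0%), and 0 were under an unadjusted p of 0.05. Between the read-length pairs the same ratios differed by 3.19 (limma adjusted p = 0.0472, 24 of 254 arms passing, 9.45%) and by 6.84 (limma adjusted p = 5.33e-07, 254 of 254, 100%). Of reads without a cytidine tail, adenosine tails were on 9.34% and 11.8% in wildtype against 10.9% and 9.12% in Ago2 CD.

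**Figure D5:**
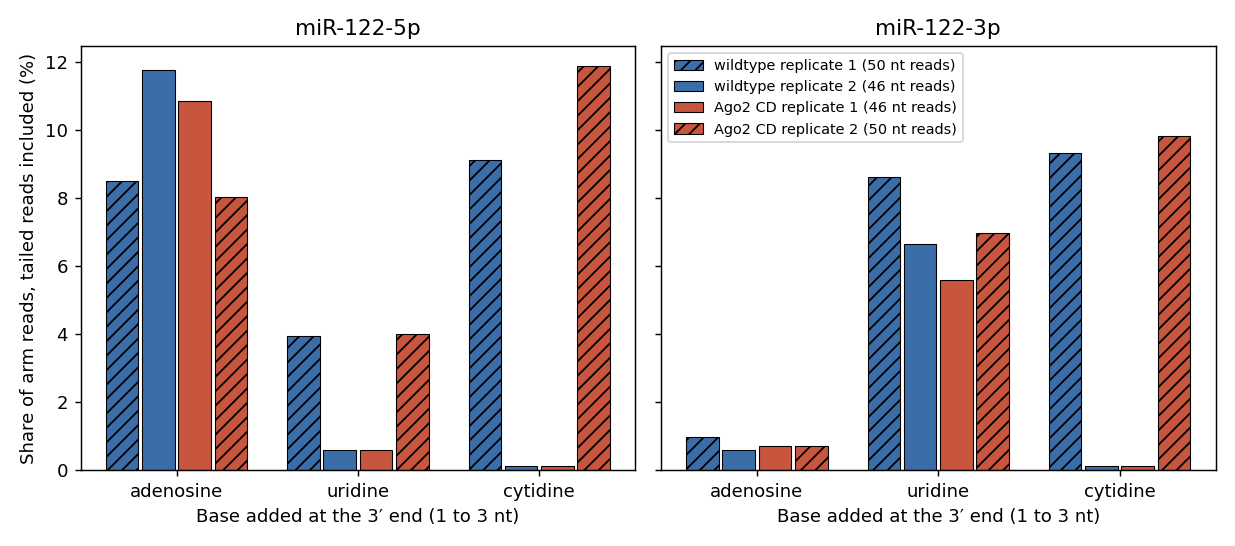
Share of miR-122-5p (left) and miR-122-3p (right) reads with 1 to 3 added adenosines, uridines or cytidines, in percent of all reads of the arm, 1 bar per library, hatched for 50 nt and plain for 46 nt libraries. Cytidine bars reach 11.9% in hatched libraries and are near 0.12% in plain ones. Adenosine bars exceed uridine bars on the 5p strand but not on the 3p strand. Bars count only tails that differ from the next hairpin base, which hides uridine after the main 5p end and adenosine after the main 3p end.

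The tails that could be seen on the 3p strand differed from those seen on the 5p strand. Adenosine was on 0.988% and 0.604% of 3p reads in wildtype against 0.712% and 0.723% in Ago2 CD, compared with 8.04% to 11.8% on the 5p strand. An added adenosine cannot be seen on 3p reads that end at positions 58 to 60 or at 62, where the next hairpin base is A, so these shares cover a minority of 3' ends. Uridine was on 8.62% and 6.64% in wildtype against 5.60% and 6.96% in Ago2 CD. On reads covering positions 41 to 60 the uridine share was 29.8% in both wildtype libraries and 29.2% and 26.6% in Ago2 CD, and it was 0.814% to 2.15% on those covering 41 to 62. Other ends rich in uridine were higher in the 50 nt pair. Reads covering 41 to 59 had 30.5% and 10.5% in wildtype against 13.7% and 32.2% in Ago2 CD. Those covering 42 to 63 had 40.4% and 29.1% in wildtype against 32.6% and 40.9% in Ago2 CD. Both bases differed by less than their SE between genotypes, with log2 differences of -0.14 (SE 0.46) for adenosine and -0.30 (SE 0.40) for uridine and limma adjusted p-values of 0.999. Cytidine tails of the 3p strand repeated the split of the 5p strand, at 9.33% and 9.84% in the 50 nt pair and 0.119% and 0.120% in the 46 nt pair. They stood on 40.7% and 43.3% of 50 nt pair reads covering 41 to 61, after which the next base is U.

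Few reads ran past the arms, and the listed read lengths limited what could be seen of the loop. An intact intermediate from the 5p start to the 3p end would be 57 nt long, above the longest reads listed, so these libraries could not list one. Untailed reads of 28 nt or more numbered 0 and 3 in wildtype against 3 and 0 in Ago2 CD, and a single read, in wildtype replicate 2, spanned both arms. Untailed reads within the loop, with a few bases of each arm allowed, numbered 0 in each library. The stretch between position 27, where the 5p read ends, and position 41, where the 3p read begins, is shorter than 16 nt. The shortest reads listed were 16 nt, so a fragment of this stretch alone could not be listed. For reads that also reach into the arms, a count of 0 allows up to 3 reads. That is 0.00191% and 0.000556% of the hairpin's reads in wildtype against 0.000192% and 0.000802% in Ago2 CD.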

How the data were processed

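Small RNA of 4 mouse fetal liver libraries (2 wildtype, 2 Ago2 CD) was analysed from the deposited tables, in which the authors give whole-number read counts, 1 row per read sequence, without normalization. Adapters were removed with cutadapt, per the submitters' processing notes; no version, setting, aligner or build was given in the sources used here. Reads with an undetermined base (0.183% to 0.256%) were left out.

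Reads from 16 nt were matched on the sense strand to the 2202 hairpins of GENCODE mouse release M21 (GRCm38). Unmatched reads were matched again with 1 to 3 nt trimmed at the 3' end, keeping the longest templated part. Arm reads were 18 to 27 nt long, and arms were divided at the hairpin's midpoint. Libraries held 13138065 to 21875540 reads, of which 7814082 to 14422924 were on arms. Messenger RNA fragments were matched without mismatch from 20 nt, and their denominator was all reads outside mir-451a, which differs between the genotypes. The fold was computed with RNAfold 2.7.2.

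Arm levels were tested with the edgeR 4.0.16 quasi-likelihood test after TMM scaling and edgeR's filter on low counts. Log2 ratios of read classes (pseudocount 0.5, arms with 200 reads or more in each library; for the strand ratio, at least 20 reads in every library and 10 on the minor arm) were tested with limma 3.58.1 in R 4.3.3. P-values were adjusted by Benjamini-Hochberg over all arms tested. The scripts were tested on simulated data. Alternatives were DESeq2 1.42.0, limma voom, other scalings and filters, other pseudocounts and tail definitions, a replicate block, a read-length term and each library left out. The tests of the 3p strand's 5' end and tails, and all tests between the read-length pairs, with or without a genotype term, were added after seeing the data. Named arms were both arms of mir-122, the 5 arms nearest to miR-122-5p in level, and a hepatocyte list shown as counts with its most abundant members as examples. The mir-122 hairpin and all lists were chosen with earlier results of these data known.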

Additional observations from a re-analysis of the deposited data

How the results depend on the processing

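Between genotypes, 1 result moved past the threshold: the level of miR-122-3p with read length as a term (0.80, edgeR adjusted p = 0.0276). Under other scalings, tests and filters both levels stayed positive (0.23 to 1.03 for 5p). With the alternatives that kept all libraries, the sign changed for uridine tails (0.012) and guanosine tails (-0.0054) of the 5p strand counted as exactly 1 nt, and for adenosine tails of the 3p strand from position 41 only (0.084).

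Leaving out 1 library gave these log2 differences, lowest to highest: level of 5p -0.29 to 1.28 and of 3p -0.17 to 1.84; other 5p starts -0.45 to 0.50; longer reads -0.62 to 0.17 and shorter reads -0.63 to 0.36; adenosine tails -0.24 to 0.069, uridine -1.505 to 1.499, cytidine -3.19 to 3.60 and guanosine -1.24 to 1.31; adenosine against uridine -1.69 to 1.52 and against cytidine -3.80 to 3.21; 3p adenosine tails -0.60 to 0.33. Mean length differed by -0.13 to 0.10 nt. None passed the threshold. Leaving out 1 library also leaves the read lengths unequal between the genotypes. The 3p starts (-0.66 to -0.59) and the strand ratio (0.18 to 0.53) kept their sign. This was fixed in advance, since the genotypes did not overlap in either measure, and is no further support.

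The replicate block, which treats equal replicate numbers as pairs, changed no call; for the level of miR-122-5p it gave 0.45 (SE 0.90, edgeR adjusted p = 1.00). The correlation of deviations from the group means over 584 arms was 0.72 for equal read lengths. With 2 libraries per genotype, the value for equal numbers is by construction the same with opposite sign, -0.72. The crossed pairing is the read-length term. It called 12 arms in level, against 2 without it and 2 with the block. DESeq2 called 7, no filter on low counts 11, arm reads of 20 to 24 nt 1, scaling without miR-451a and miR-486 1, and libraries left out 0 to 4. For shorter reads the read-length term called 14 arms, against 0. Without a genotype term the read-length pairs differed in level at 55 arms in place of 224, in uridine tails at 22 in place of 44, in adenosine against uridine at 68 in place of 24, and in strand ratio at 11 in place of 4.

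With 2 libraries per genotype the SE of a log2 level difference was 0.67 to 0.77, so differences of the size seen in mir-122 could not be resolved without the read-length term. Added uridine on the 5p strand and added adenosine on the 3p strand are hidden where the next hairpin base is the same, and the shares given are those that can be seen.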

Other observations

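Tails of mixed bases were found on 1.00% and 0.735% of miR-122-5p reads in wildtype against 0.569% and 0.911% in Ago2 CD. An adenosine followed by a uridine was on 0.359% and 0.229% of reads in wildtype against 0.151% and 0.237% in Ago2 CD. The opposite order was rarer, at 0.0470% and 0.0686% in wildtype against 0.0585% and 0.0574% in Ago2 CD. On miR-122-3p the opposite order was the more frequent, at 0.445% and 0.514% in wildtype against 0.488% and 0.281% in Ago2 CD, against 0.0835% and 0.101%, and 0.0624% and 0.110%, for adenosine then uridine. These shares were not tested between genotypes. They count only tails whose first base differs from the next hairpin base. That base is U after the 22 nt 5p part and A after position 62, so the orders are not equally visible.

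Fragments of the host transcript AC157910.3 outside the hairpin were few, with 23 and 36 reads in wildtype against 135 and 64 in Ago2 CD. Scaled to the reads outside mir-451a these were 2.22 and 3.89 CPM against 6.18 and 4.21 CPM. As for the hepatocyte, erythroid and myeloid messenger RNA sums, both Ago2 CD values lay above both wildtype values; the difference was not tested.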
